A study of Mus musculus with 16 samples.

Results

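Lung endothelium of mice with metastases (time point d36) was compared with lung endothelium of mice free of tumour (d0). The comparison used 8 of the 16 bulk RNA sequencing libraries of the series, 4 per group, chosen by their time point label alone. Per the labels, the mice were female C57BL/6N. The d36 mice had been implanted under the skin with Lewis lung carcinoma (LLC) cells, a mouse tumour line known to spread to the lung, and bore metastases when their lungs were taken. The d0 mice are described as wild type. No allele or drug is given for either group. In both groups endothelial cells were sorted by flow cytometry, and 10 ng of RNA went into each library. The sort antibodies, the age of the mice and the number of animals per library are not stated in the sources. Removal of the primary tumour is given in the labels for d22 and not stated for the d36 mice. Tumour implantation, metastases, days elapsed and any such surgery differ together between the groups and cannot be told apart. The libraries are replicates 1, 7, 8 and 9 at d36 and replicates 1, 2, 3 and 4 at d0, and values below follow that order. The title of d36 replicate 1 names day 29, while its time point field reads d36. The series describes the libraries of a time point as independent biological replicates.

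Endothelial cells line every blood vessel, and in the lung most of them form capillaries around the air sacs. They carry adhesion molecules, chemokines and clotting factors through which blood cells are stopped or let pass, and an inflamed vessel wall shows more of these. Tumour cells that reach the lung must hold on to this lining and cross it, and a growing metastasis later draws vessels and leukocytes from its surroundings. A sort of endothelial cells from such a lung may also hold RNA of tumour cells and leukocytes, so markers of each are given beside the results.

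Levels are in RPKM, which scales read counts to transcript length and library size. Differences are log2 fold changes of log2(RPKM + 1), with a standard error, which understate the change of genes near or under 1 RPKM. On a transcript of 1 kilobase, 1 RPKM stood for about 103 to 152 reads at d36 and 95.3 to 113 reads at d0, as worked out from the steps between low values. The labelled cell type was seen in each library. The 20 pan-endothelial genes had a list mean of 7.21 to 7.41 at d36 and 7.37 to 7.43 at d0 on the log2(RPKM + 1) scale. Pecam1, the adhesion molecule CD31, had 564, 643, 678 and 619.7 RPKM at d36 and 645, 645, 664 and 731 RPKM at d0. The d36 libraries differed more among each other than the d0 libraries, with correlations across tested entries of 0.919 to 0.984 at d36 and 0.979 to 0.99 at d0. The library that stood apart was d36 replicate 9. It correlated at 0.919 to 0.953 with the other d36 libraries and at 0.957 to 0.974 with the d0 libraries, and replicates 1, 7 and 8 correlated at 0.91 to 0.945 with the d0 libraries. These are descriptions across entries of the same libraries. Results are therefore given per library and, where it matters, without replicate 9.

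After a filter on low values, which asked for 1 RPKM or more in 4 or more of the 8 libraries, 13279 entries were tested. By limma, 1444 were higher (10.9%) and 526 lower (3.96%) at d36 at an adjusted p under 0.05. At least 2-fold changes were called for 335 entries higher (2.52%) and 10 lower (0.0753%). Of these 335, 75 were under 1 RPKM in every d0 library and entered the test through d36. The 4 d36 values lay above the 4 d0 values in 1859 entries (14%) and below them in 1042 (7.85%). The median log2 fold change of all tested entries was 0.04.

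Single libraries moved these counts. Without d36 replicate 9, 2679 entries were higher and 1550 lower. Leaving out d36 replicate 1, 7 or 8 gave 719, 1058 and 618 higher entries and 178, 320 and 170 lower ones. Leaving out d0 replicate 1, 2, 3 or 4 gave 772, 886, 515 and 504 higher entries and 177, 248, 74 and 89 lower ones. Higher entries made up 73.3% of the calls, against 55.6% after median ratio scaling and 50.3% after quantile normalization, so the split between rises and falls depends on the scaling.

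The 12 largest rises included 3 chemokine genes, Cxcl1, Ccl2 and Ccl7. Cxcl1, a chemokine that draws neutrophils, had 236, 406, 121 and 6.79 RPKM in the d36 libraries, against 0.604, 0.765, 0.427 and 0.10 RPKM in the d0 libraries. Replicate 7 was highest and replicate 9 lowest at d36, and the groups did not overlap (log2 fold change 6.07 ± 1.0, adjusted p = 0.00838). Cxcl1 is a protein-coding gene on chromosome 5, 90891241 to 90893115 (plus strand) of mm10. Ccl2, the main chemokine for monocytes, had 180.1, 230.04, 100.5 and 5.87 RPKM at d36 and 0.403, 0.0465, 0.044 and 0 RPKM at d0. It was close to absent at d0, and replicate 9 again had the least of the d36 libraries (log2 fold change 6.05 ± 0.92, adjusted p = 0.00608). Ccl2 stands on chromosome 11, 82035571 to 82037453 (plus strand). The next gene on that strand, the related chemokine gene Ccl7, lies on chromosome 11, 82045712 to 82047525 (plus strand) and had 52.97, 60.8, 39.9 and 2.62 RPKM at d36 and 0, 0, 0 and 0.0599 RPKM at d0. Replicate 4 was the one d0 library with a value above 0 (log2 fold change 4.71 ± 0.76, adjusted p = 0.00772).

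Rhox5, a homeobox gene of the X chromosome known from the testis and from many tumour lines, had 148, 97.8, 91.6 and 11.1 RPKM in the d36 libraries, against 0.196, 0.113, 0 and 0.103 RPKM in the d0 libraries. It was near 0 at d0 and far above that in each d36 library, replicate 9 included (log2 fold change 5.85 ± 0.64, adjusted p = 0.00231). Lgals1, which codes for the secreted lectin galectin-1, had 539, 515, 363 and 31.1 RPKM at d36 and 3.4, 2.42, 2.5 and 3.39 RPKM at d0. It was expressed at d0 as well, lies on chromosome 15, 78926725 to 78930465 (plus strand) and had replicate 9 well above d0 (log2 fold change 5.94 ± 0.77, adjusted p = 0.00377). Myc, a transcription factor that drives cell growth, had 230.3, 136, 108 and 4.68 RPKM at d36 and 1.02, 1.48, 1.3 and 1.51 RPKM at d0. Replicate 1 was highest, and replicate 9 was above d0 by the least of the d36 libraries (log2 fold change 4.84 ± 0.95, adjusted p = 0.0131).

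S100a4 and S100a6, calcium-binding genes that lie close to each other on chromosome 3, had log2 fold changes of 4.78 and 4.52. S100a4 had 3.6 to 92.8 RPKM at d36 and 0.0385 to 0.225 RPKM at d0, and S100a6 had 483, 534, 329.8 and 42.7 RPKM at d36 and 8.34, 12.9, 8.69 and 9.73 RPKM at d0. The metal-binding metallothionein genes Mt1 and Mt2 are neighbours on chromosome 8 and had log2 fold changes of 4.66 and 4.32. Mt1 had 181, 92.8, 104 and 12.2 RPKM at d36 and 1.86, 2.96, 1.31 and 1.2 RPKM at d0, and Mt2 had 2.6 to 56.5 RPKM at d36 and 0 to 0.292 RPKM at d0. Serpinf1, a secreted inhibitor of vessel growth also known as PEDF, had 50.7, 54.1, 50.2 and 3.01 RPKM at d36 and 0.12, 0.123, 0.31 and 0.22 RPKM at d0. Replicates 1, 7 and 8 were close to one another (log2 fold change 4.54 ± 0.73, adjusted p = 0.00772). Pla2g7, an enzyme that breaks down platelet-activating factor, had 50.05, 35.99, 44.5 and 6.38 RPKM at d36 and 0.698, 0.359, 0.303 and 0.316 RPKM at d0. Its d36 libraries 1, 7 and 8 were likewise close (log2 fold change 4.32 ± 0.52, adjusted p = 0.00297). The 12 genes named in these paragraphs passed in each of the 8 fits that left out a library, and d36 replicate 9 was the lowest d36 library in each of the 12. Of these, Cxcl1, Ccl2, Ccl7, Rhox5, S100a4, Mt2, Serpinf1 and Pla2g7 were under 1 RPKM in every d0 library. They entered the test through d36, so their calls and passes are a description.

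**Figure D1:**
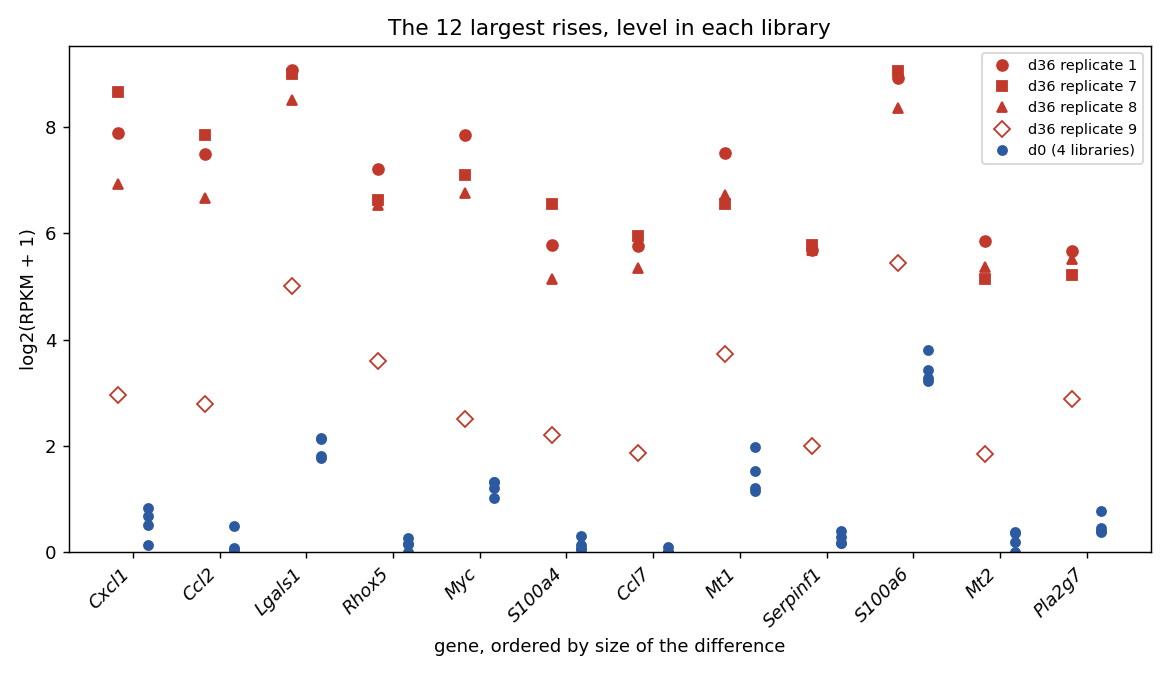
Level of the 12 genes with the largest rises, as log2(RPKM + 1) on the vertical axis, with the 4 d36 libraries on the left of each pair and the 4 d0 libraries on the right. Replicate 9 of d36, drawn as an open diamond, lies between the other d36 libraries and the d0 libraries for each gene, as for Cxcl1 with 6.79 RPKM in replicate 9 and 121 to 406 RPKM in the others.

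At the 2 other time points of the series the means of these genes were far below those at d36. Cxcl1 averaged 1.35 RPKM at d15, with a primary tumour, and 3.05 RPKM at d22, after resection. Ccl2 averaged 0.475 and 1.66 RPKM, and Lgals1 2.96 and 4.90 RPKM, at d15 and d22. Rhox5 averaged 0.163 RPKM at d15 and 0.418 RPKM at d22, and Myc 3.47 and 4.12 RPKM.

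Tumour-line and keratin transcripts, a list that includes Rhox5, had the highest median of the lists. Of 9 measured members, 7 were tested and 5 were higher, where 10.9% of all tested entries were higher. The median was 3.75, against 0.04 over all tested entries. Rhox5 was under 1 RPKM in every d0 library and entered the test through d36. The keratin genes Krt8 and Krt18 code for partner filaments of epithelia and carcinomas. Krt8 had 57.6, 44.7, 29.2 and 2.55 RPKM at d36 and 0.597, 1.15, 0.32 and 0.957 RPKM at d0 (log2 fold change 3.75 ± 0.74, adjusted p = 0.0133). Krt18 had 90.1, 71.2, 46.1 and 5.66 RPKM at d36 and 0.686, 2.69, 1.15 and 1.49 RPKM at d0 (log2 fold change 3.98 ± 0.70, adjusted p = 0.00928). Hmga1, a chromatin protein of embryonic and transformed cells, had 98.1, 65.7, 60.3 and 4.72 RPKM at d36 and 2.19, 1.69, 1.69 and 1.8 RPKM at d0. In all of these replicate 1 was highest and replicate 9 lowest of the d36 libraries (log2 fold change 3.78 ± 0.74, adjusted p = 0.013 for Hmga1), and the level of Hmga1 is uncertain, since its reads may map to more than 1 place. Cd44, a hyaluronan receptor that leukocytes and activated endothelium carry too, had a log2 fold change of 1.26.

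Members of this list outside the test also had replicate 1 highest and replicate 9 lowest at d36. Hmga2, a relative of Hmga1 that adult tissues largely lack, had 8.48, 6.83, 7.96 and 0.268 RPKM at d36 and was listed at 0 in each d0 library. Igf2bp2, an RNA-binding protein of fetal tissue, had 6.67, 4.59, 4.18 and 0.156 RPKM at d36 and was also listed at 0 in each d0 library. Krt7 and Krt19, keratins of the airway lining as well, did not pass, with log2 fold changes of 0.05 and 0.23. Summed over the list, levels were 442, 310.5, 262 and 37.04 RPKM at d36 and 13.3, 15.8, 11.1 and 14.9 RPKM at d0. Replicate 1 held the most, and replicate 9 the least at d36 while still above every d0 library. Of the list, 4 (without d36 replicate 8) to 5 (without d36 replicate 1) members were higher when single libraries were left out.

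Some pan-leukocyte genes were higher at d36, with another order of libraries. Of 7 measured pan-leukocyte genes, 5 were tested and 3 were higher, where 10.9% of all tested entries were higher. These 3 were under 1 RPKM in every d0 library and entered the test through d36, so their count is a description. Coro1a, an actin regulator of blood cells, had 1.94, 10.8, 19.9 and 2.94 RPKM at d36 and 0.54, 0.483, 0.265 and 0.797 RPKM at d0. The surface gene Cd52 had 1.32, 3.36, 6.38 and 1.32 RPKM at d36 and 0, 0.279, 0.106 and 0.153 RPKM at d0. Rac2, the Rac GTPase of blood cells, had 1.08, 4.27, 7.33 and 1.18 RPKM at d36 and 0.0345, 0.269, 0.114 and 0.0822 RPKM at d0. Replicate 8 was highest and replicate 7 next in all 3, and replicates 1 and 9 were low and close to each other. The list summed to 74.4, 101, 150.2 and 66.6 RPKM at d36 and 64.8, 64.9, 59.8 and 69.005 RPKM at d0. Most of the sum at d0 came from Arhgdib and Lcp1, which did not pass. Arhgdib had 34.3, 42.0, 61.4 and 26.3 RPKM at d36 and 27.9 to 32.1 RPKM at d0. Lcp1 had 33.4, 34.1, 43.8 and 33.4 RPKM at d36 and 31.4 to 35.8 RPKM at d0. Ptprc, which codes for CD45, was not analysed here.

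Macrophage and monocyte genes had the same order of libraries in their sum. Of 10 tested members 8 were higher, where 10.9% of all tested entries were higher. In 3 of the 10 every d0 library was under 1 RPKM, so this count is a description too. Summed levels were 76.5, 139, 215 and 65.9 RPKM at d36 and 44.2, 38.1, 27.1 and 53.2 RPKM at d0. Marco, a scavenger receptor of lung macrophages, had 1.83, 8.13, 6.67 and 2.21 RPKM at d36 and 0.043, 0, 0 and 0.275 RPKM at d0 (log2 fold change 2.23 ± 0.35, adjusted p = 0.00731). The complement gene C1qb had 2.44, 12.9, 11.8 and 1.02 RPKM at d36 and 0, 0, 0 and 0.234 RPKM at d0. Cd68, a lysosomal protein of macrophages, had 8.36, 9.19, 9.77 and 3.85 RPKM at d36 and 1.41, 1.07, 0.942 and 2.48 RPKM at d0. All d36 libraries were above all d0 libraries in these 3 genes. The integrin gene Itgam was listed at 0 in each d0 library and had 1.03 to 3.51 RPKM at d36. Lyz2, the macrophage lysozyme, had 45.6, 55.9, 106 and 43.8 RPKM at d36 and 34.6, 33.7, 24.01 and 40.9 RPKM at d0 and did not pass (adjusted p = 0.0667). Across fits that left out a library there were 3 (without d0 replicate 3) to 9 (without d36 replicate 9) higher macrophage genes and 1 (without d0 replicate 1) to 4 (without d36 replicate 9) higher pan-leukocyte genes. Among the fits that left out a library, calls held for Coro1a in 3 of 8 (adjusted p = 0.0737 without d0 replicate 3), Rac2 in 5 of 8 (adjusted p = 0.0637 without d0 replicate 3) and C1qb in 4 of 8 (adjusted p = 0.0607 without d0 replicate 3).

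Markers of other blood cells were mostly too low for the test. The 5 neutrophil genes summed to 1.86, 47.2, 26.1 and 0.533 RPKM at d36 and 0.0552, 0, 0.0269 and 0.0917 RPKM at d0. S100a8, a calcium-binding gene of neutrophils, had 1.05, 18.2, 9.59 and 0.061 RPKM at d36, and both S100a8 and S100a9 were listed at 0 in each d0 library. Replicate 7 was highest in both, and replicate 8 next. Gzmb, the granzyme of cytotoxic lymphocytes, had 0.209, 4.74, 9.85 and 1.08 RPKM at d36 and was listed at 0 in each d0 library. Nkg7, also outside the test, had 0.324 to 2.26 RPKM at d36 and 0 to 0.0947 RPKM at d0. Cd2, the 1 tested T and NK cell gene, did not rise or pass (log2 fold change -0.12). Its values were 1.3, 0.982, 2.93 and 1.67 RPKM at d36 and 2.15, 1.92, 1.73 and 1.68 RPKM at d0. Cd79a, part of the B cell receptor, had 3.3, 0.938, 11.8 and 4.0 RPKM at d36 and 0.696, 1.33, 0.649 and 0.673 RPKM at d0. It did not pass (log2 fold change 1.4, adjusted p = 0.0657), and replicate 7 lay within the d0 range. The platelet chemokine gene Pf4 had 2.47, 8.59, 2.69 and 0.536 RPKM at d36 and 0.0535 to 0.43 RPKM at d0. Hba-a1, a haemoglobin gene with a near-identical copy, had 1.99, 4.56, 1.87 and 10.4 RPKM at d36 and 0.72, 1.51, 0.527 and 0.872 RPKM at d0. Here replicate 9 was highest (log2 fold change 1.37 ± 0.40, adjusted p = 0.0467), and the call held in 1 of the 8 fits that left out a library, with an adjusted p of 0.124 without d0 replicate 3.

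Stromal and epithelial markers differed among themselves. Of 4 tested fibroblast genes 1 was higher, the matrix gene Lum, with 22.8, 11.8, 26.7 and 1.01 RPKM at d36 and 0.52, 0.627, 0.765 and 0.932 RPKM at d0. Replicate 9 was just above the d0 libraries (log2 fold change 2.74 ± 0.69, adjusted p = 0.0293), and the call held for Lum in 1 of 8 (adjusted p = 0.0796 without d36 replicate 1). Lum was under 1 RPKM in every d0 library and entered the test through d36. It lost its call with a trend on transcript length and GC content removed. Over all tested entries 10.9% were higher. The fibroblast list summed to 46.1, 38.9, 50.3 and 12.05 RPKM at d36 and 6.67, 5.6, 5.94 and 10.4 RPKM at d0. Col1a1, the main collagen of fibroblasts, had 4.56, 4.05, 2.56 and 0.347 RPKM at d36 and 1.47, 0.929, 0.709 and 0.555 RPKM at d0 and did not pass (adjusted p = 0.165). Col3a1, a fibrillar collagen outside the test, had 8.76, 10.6, 7.39 and 0.484 RPKM at d36 and 0.199 to 0.469 RPKM at d0. Mural cell genes had 0 calls among 4 and a median of 0.31. Lung epithelial genes had 0 calls among 9 and a median of -0.34, and their general marker Epcam had 0.0465 to 0.174 RPKM at d36 and 0 to 0.108 RPKM at d0. Cardiomyocyte genes had 0 calls among 6 and a median of -0.51. Msln, a mesothelial gene, had 4.36, 10.7, 3.06 and 0.041 RPKM at d36 and 0 to 0.268 RPKM at d0.

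Summed tumour-line, pan-leukocyte, macrophage, neutrophil, platelet, erythroid and fibroblast markers were higher in d36 replicates 1, 7 and 8 than in each d0 library. Replicate 9 was above each d0 library in these sums too, apart from pan-leukocyte genes, with 66.6 RPKM. The part of these markers in the rises described here was not tested. For pan-leukocyte genes the margin in replicate 1 was small, with 74.4 RPKM against up to 69.0 RPKM at d0. In bulk RNA, a change in the number of cells of a type and a change in RNA per cell cannot be told apart.

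**Figure D2:**
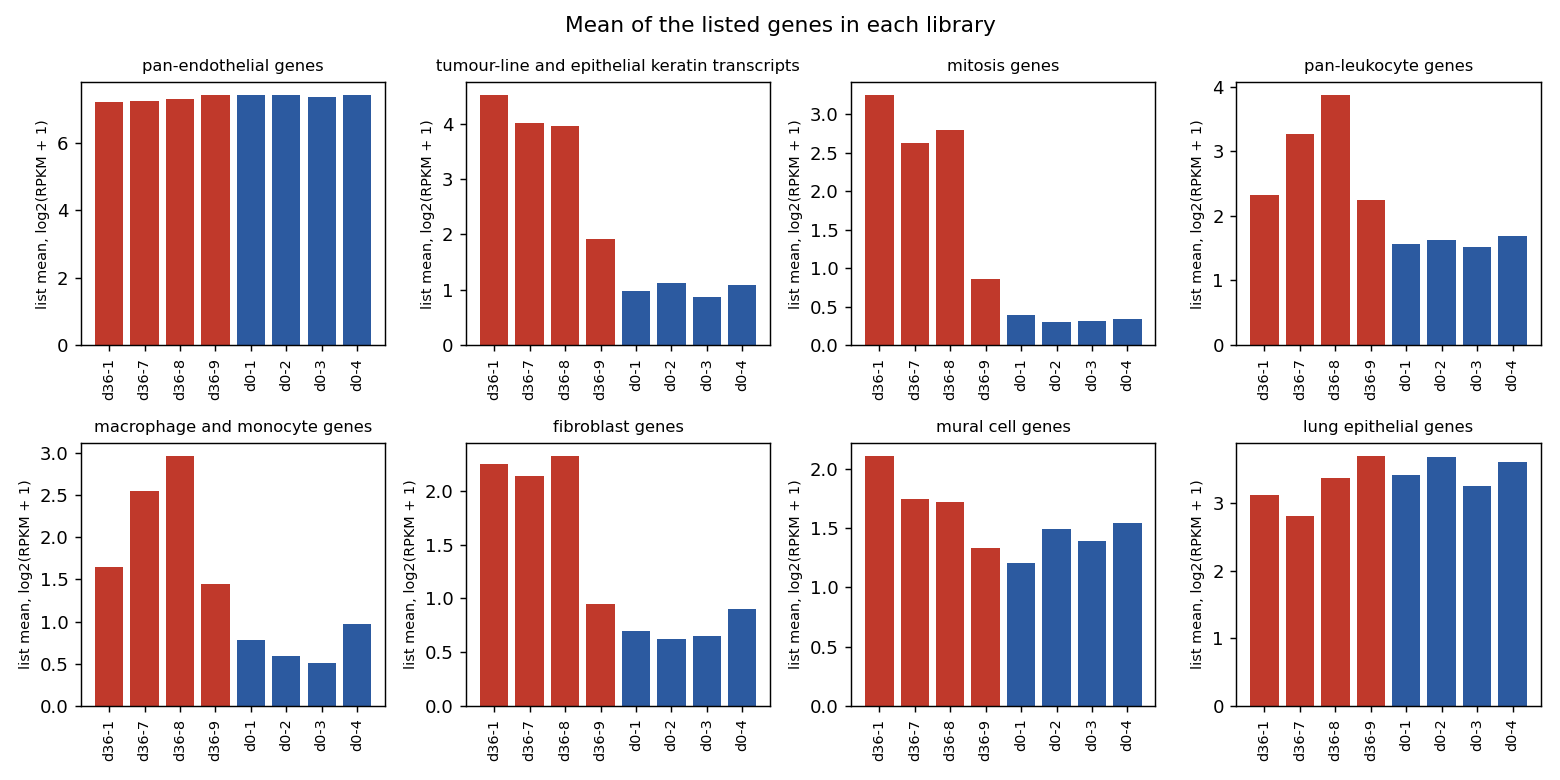
Mean of the listed genes in each library as log2(RPKM + 1), for 8 lists, with the d36 libraries (replicates 1, 7, 8 and 9) on the left and the d0 libraries on the right. The pan-endothelial mean was 7.21 to 7.41 at d36 and 7.37 to 7.43 at d0, while tumour-line transcripts peaked in d36 replicate 1 and pan-leukocyte and macrophage genes in d36 replicate 8.

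Chemokines are small secreted proteins that guide leukocytes, and endothelial cells make several of them when NF-kB is active. Of 25 measured chemokine and cytokine genes, 15 were tested, of which 9 were higher and 0 lower, with a median of 2.33. The shares over all tested entries were 10.9% higher and 3.96% lower. In 9 of the 15 every d0 library was under 1 RPKM, so this count is a description. Cxcl2, another neutrophil chemokine, had 19.3, 48.1, 32.04 and 3.21 RPKM at d36 and 0.191, 0.0568, 0.0358 and 0.00969 RPKM at d0. It peaked in replicate 7 like Cxcl1 (log2 fold change 4.17 ± 0.62, adjusted p = 0.00565). The macrophage chemokine genes Ccl3, Ccl4, Ccl6 and Ccl9 had log2 fold changes of 3.67, 3.26, 2.39 and 2.33, and the interferon-induced Cxcl10 had 1.91. Ccl6 had 3.23, 5.76, 9.03 and 2.94 RPKM at d36 and 0.285, 0, 0.0401 and 0.109 RPKM at d0. Its highest library was replicate 8, as for Coro1a, Cd52 and Rac2, while Marco and C1qb were highest in replicate 7. Cxcl12, the chemokine of capillary endothelium (-0.11), the membrane-bound Cx3cl1 (0.09) and the scavenger receptor gene Ackr3 (0.44) did not pass. Il6, a cytokine of inflamed stroma and vessels outside the test, had 0.808, 7.44, 9.12 and 0.259 RPKM at d36 and 0 to 0.032 RPKM at d0. Leaving out single libraries gave 6 (without d0 replicate 3) to 11 (without d36 replicate 9) higher members.

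The promoters of Cxcl1 and Cxcl2 are shown because both hold the same stretch known as an NF-kB motif near the start. The windows are from RefSeq (GRCm38.p6), have 300 bases on the plus strand and lie at chr5:90890995-90891294 and chr5:90903649-90903948. Capitals mark the motif, which is GGG and CC with AATTT between them and was searched on both strands. Its first base stands at -71 from the start in Cxcl1 and at -97 in Cxcl2.
Cxcl1: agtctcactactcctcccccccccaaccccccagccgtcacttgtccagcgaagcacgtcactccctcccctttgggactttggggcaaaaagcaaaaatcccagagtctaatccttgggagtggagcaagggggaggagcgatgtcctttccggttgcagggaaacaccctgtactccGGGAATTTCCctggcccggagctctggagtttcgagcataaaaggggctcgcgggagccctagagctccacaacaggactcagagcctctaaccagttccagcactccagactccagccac
Cxcl2: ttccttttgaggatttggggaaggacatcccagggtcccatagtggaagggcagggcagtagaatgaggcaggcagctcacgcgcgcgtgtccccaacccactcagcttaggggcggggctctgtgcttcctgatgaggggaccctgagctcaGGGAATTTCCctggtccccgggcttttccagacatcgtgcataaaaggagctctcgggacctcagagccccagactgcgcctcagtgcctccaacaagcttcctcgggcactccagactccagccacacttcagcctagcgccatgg
Among 27025 genes with a window, 29 held this motif (0.11%), and among 11 tested members of the chemokine list with a window 2 did (18.2%). With any 5 bases between GGG and CC, the shares were 53.5% of all genes and 54.5% of those members. The genes shown were chosen for holding the motif, and 9 of the 15 tested chemokine list members entered the test through d36. These shares are therefore a description. A match is a stretch of letters, and binding was not measured. Ccl2 and Lgals1 are named without a promoter.

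Venous and leukocyte adhesion genes include the molecules by which an inflamed vein wall stops blood cells. Vcam1, which binds leukocyte integrins, had 51.96, 34.4, 25.9 and 11.3 RPKM in the d36 libraries, against 4.52, 8.52, 9.38 and 7.91 RPKM in the d0 libraries. Its order of d36 libraries was that of the tumour-line list, with replicate 1 highest (log2 fold change 1.75 ± 0.39, adjusted p = 0.0205). Selp, the selectin of platelets and endothelium, had 9.33, 15.5, 4.88 and 3.17 RPKM at d36 and 1.36, 2.23, 1.66 and 1.87 RPKM at d0. Replicate 7 was highest and the groups did not overlap (log2 fold change 1.54 ± 0.36, adjusted p = 0.0245). Darc, a venule receptor that binds chemokines, had 1.74, 6.82, 2.18 and 1.12 RPKM at d36 and 0.206, 0.134, 0.253 and 0.137 RPKM at d0 (log2 fold change 1.55 ± 0.33, adjusted p = 0.0176). Nr2f2, the transcription factor of venous identity, had 4.88, 6.31, 5.07 and 3.08 RPKM at d36 and 1.11, 2.49, 1.97 and 1.72 RPKM at d0. All d36 libraries were above all d0 libraries (log2 fold change 1.04 ± 0.21, adjusted p = 0.0139). These 4 were the calls among 11 venous genes, whose median was 0.72 and of which 10 had a positive log2 fold change. Over all tested entries 10.9% were higher. Darc was under 1 RPKM in every d0 library and entered the test through d36. The venous count was 1 (without d0 replicate 3) to 7 (without d36 replicate 9) across fits that left out a library. Among those fits, calls held for Vcam1 in 4 of 8 (adjusted p = 0.0582 without d0 replicate 4), Selp in 4 of 8 (adjusted p = 0.0714 without d0 replicate 3) and Darc in 6 of 8 (adjusted p = 0.0556 without d0 replicate 4).

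Other adhesion genes did not pass or were lower. Vwf, the clotting factor stored by endothelium, had 68.97, 67.7, 72.6 and 37.2 RPKM at d36 and 39.9, 44.6, 48.2 and 43.4 RPKM at d0. Replicates 1, 7 and 8 were above the d0 libraries and replicate 9 below them, and Vwf passed without replicate 9 (adjusted p = 0.16 with it and 0.0014 without it). Icam1, a ligand of leukocyte integrins, had 58.9, 89.997, 35.1 and 27.6 RPKM at d36 and 32.4, 26.7, 26.6 and 22.6 RPKM at d0 and did not pass (adjusted p = 0.108, and 0.0146 without replicate 9). Sele, the inducible selectin of endothelium, did not enter the test and had 5.16, 6.43, 0.811 and 0.236 RPKM at d36 and 0.174, 0.465, 0.737 and 0.345 RPKM at d0. Replicates 1 and 7 were well above d0, replicate 8 just above and replicate 9 within the d0 range. Icam2, an adhesion molecule of the resting lining, had 68.3 to 112 RPKM at d36 and 113 to 131 RPKM at d0 and fell by 0.54 on the log2 scale (adjusted p = 0.0388). F11r, a junction molecule, fell by 0.45 on that scale (adjusted p = 0.0197), with 115 to 133 RPKM at d36 and 157 to 185 RPKM at d0. Calls held for Icam2 in 1 of 8 (adjusted p = 0.105 without d0 replicate 3) and F11r in 5 of 8 (adjusted p = 0.0696 without d0 replicate 3).

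NF-kB is held in the cytoplasm by inhibitor proteins and, once freed, induces both inflammatory genes and its own inhibitors. Of 18 tested subunits, receptors and inhibitors 4 were higher and 1 lower, with a median of 0.48, where 10.9% of all tested entries were higher and 3.96% lower. Nfkbiz, an induced inhibitor in the nucleus, had 56.2, 108, 46.6 and 12.6 RPKM at d36 and 5.08, 4.91, 5.74 and 5.25 RPKM at d0. It was the largest of these rises, with replicate 7 highest (log2 fold change 2.84 ± 0.50, adjusted p = 0.00905). Il1r1, the receptor for interleukin 1, had 8.11, 6.58, 7.88 and 5.39 RPKM at d36 and 3.54, 3.77, 2.78 and 2.55 RPKM at d0. Replicate 9 was above d0 here too (log2 fold change 0.94 ± 0.16, adjusted p = 0.00845). Birc3, an inhibitor of cell death, had 3.59 to 9.43 RPKM at d36 and 2.22 to 2.9 RPKM at d0 (log2 fold change 0.87), and the subunit gene Rel 1.79 to 3.48 RPKM at d36 and 0.877 to 1.26 RPKM at d0 (0.65). Rela, the main subunit, had 28.4, 27.01, 30.9 and 29.6 RPKM at d36 and 36.7, 37.8, 37.9 and 39.7 RPKM at d0. It fell by a small amount with little spread at d36 (log2 fold change -0.38 ± 0.09, adjusted p = 0.0226). The inhibitor genes Tnfaip3 (1.5) and Nfkbia (0.31) and the subunit gene Nfkb1 (0.17) did not pass. The count of higher members was 2 (without d36 replicate 1) to 8 (without d36 replicate 9) across fits that left out a library, and calls held for Rel in 2 of 8 (adjusted p = 0.0883 without d0 replicate 3) and Rela in 3 of 8 (adjusted p = 0.0756 without d0 replicate 4). With a trend on transcript length and GC content removed, 2 were higher and 0 lower, and Rel and Rela lost their calls.

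The interleukin 6 family signals through STAT3, a transcription factor that induces acute-phase genes. Of 12 tested members 6 were higher and 0 lower, with a median of 0.89. Over all tested entries 10.9% were higher and 3.96% lower. In 1 of the 12, Saa3, every d0 library was under 1 RPKM, so it entered the test through d36. Saa3, an acute-phase protein made outside the liver, had 2.75, 4.57, 12.9 and 4.66 RPKM at d36 and 0, 0.0353, 0 and 0 RPKM at d0. Replicate 9 was as high as replicate 7, unlike for the chemokines (log2 fold change 2.66 ± 0.33, adjusted p = 0.00321). Stat3 had 4.45, 6.79, 5.71 and 6.51 RPKM at d36 and 2.99, 3.23, 3.05 and 2.85 RPKM at d0. Replicate 9 was among the higher libraries again (log2 fold change 0.76 ± 0.14, adjusted p = 0.00985). Pim1, a kinase gene induced by STAT3, had 10.9 to 18.6 RPKM at d36 and 6.24 to 10.4 RPKM at d0 (log2 fold change 0.80). Osmr, the oncostatin M receptor, had 7.95 to 20.9 RPKM at d36 and 5.63 to 10.9 RPKM at d0 (0.99), and the iron carrier gene Lcn2 0.619 to 5.09 RPKM at d36 and 0.397 to 1.11 RPKM at d0 (1.25). Lrg1, a secreted modulator of TGF-beta signalling in vessels, had 104, 499, 170.3 and 48.8 RPKM at d36 and 51.98, 33.2, 29.4 and 37.04 RPKM at d0. Its call was at the edge of the threshold, with replicate 7 far above the rest (log2 fold change 1.93 ± 0.57, adjusted p = 0.048). Socs3, the feedback inhibitor, did not pass at a log2 fold change of 2.1. With 1 library left out, 2 (without d36 replicate 7) to 11 (without d36 replicate 9) members were higher. Among those fits, calls held for Lrg1 in 1 of 8 (adjusted p = 0.123 without d0 replicate 3), Osmr in 2 of 8 (adjusted p = 0.119 without d0 replicate 3) and Pim1 in 3 of 8 (adjusted p = 0.0747 without d0 replicate 4).

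Immediate-early genes are transcription factors and feedback genes that appear soon after a stimulus. Of 19 tested members 9 were higher and 0 lower, with a median of 1.35, and Myc led them. Over all tested entries 10.9% were higher and 3.96% lower. In 1 of the 19, Fosl1, every d0 library was under 1 RPKM, so it entered the test through d36. Fos had 114, 378, 121 and 47.5 RPKM at d36 and 23.1, 20.5, 21.9 and 22.5 RPKM at d0. Replicate 7 was far above the others, as it was for the heat shock gene Hspa1a (log2 fold change 2.46 ± 0.48, adjusted p = 0.0131). Fosl1, a Fos relative common in carcinoma cells, had 35.3, 31.8, 17.5 and 1.8 RPKM at d36 and 0.652, 0.945, 0.781 and 0.72 RPKM at d0. It followed the order of the tumour-line list (log2 fold change 3.15 ± 0.68, adjusted p = 0.0181). Ier3, a survival gene, had 1079.8, 1833, 777 and 486 RPKM at d36 and 327, 215, 268 and 337 RPKM at d0. It was abundant in both groups, and the groups did not overlap (log2 fold change 1.72 ± 0.35, adjusted p = 0.0152). Klf2, the flow-sensing factor of resting endothelium (-0.50), and its relative Klf4 (-0.31) did not pass. With 1 library left out, 2 (without d0 replicate 3) to 14 (without d36 replicate 9) members were higher, and calls held for Fosl1 in 4 of 8 (adjusted p = 0.0562 without d0 replicate 3) and Ier3 in 7 of 8 (adjusted p = 0.0529 without d0 replicate 3).

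Genes of cell division were near absent at d0. Of 22 measured mitosis genes 8 were tested and 8 were higher, with a median of 2.29, where 10.9% of all tested entries were higher. In 5 of the 8 every d0 library was under 1 RPKM, and 14 did not enter the test, so this count is a description. Top2a, the topoisomerase that untangles chromosomes, had 19.6, 12.1, 15.6 and 2.68 RPKM in the d36 libraries, against 0.17, 0.0817, 0.155 and 0.0597 RPKM in the d0 libraries. It stood above every d0 library in each d36 library, least in replicate 9 (log2 fold change 3.35 ± 0.45, adjusted p = 0.00402). Ube2c, which marks mitotic proteins for destruction, had 46.8, 23.8, 25.4 and 2.06 RPKM at d36 and 0.192, 0.362, 0.372 and 0.34 RPKM at d0 (log2 fold change 3.74 ± 0.69, adjusted p = 0.0104). Cdk1, the mitotic kinase, had 37.1, 26.9, 25.7 and 1.94 RPKM at d36 and 0.472, 0.174, 0.305 and 0.533 RPKM at d0. In both replicate 1 was highest and replicate 9 lowest at d36 (log2 fold change 3.64 ± 0.68, adjusted p = 0.011 for Cdk1). Mki67, which codes for the proliferation marker Ki-67, had 3.38, 1.97, 2.13 and 0.265 RPKM at d36 and 0.0802, 0.0679, 0.0476 and 0.0133 RPKM at d0 and did not enter the test. Summed over the 22 genes, levels were 256, 154, 172 and 20.6 RPKM at d36 and 8.29, 5.65, 5.76 and 6.73 RPKM at d0. Replicate 1 was highest and replicate 9 lowest at d36, as for the tumour-line list. Kif20a, a motor protein of the dividing spindle, had 18.4, 9.11, 9.36 and 1.67 RPKM at d36 and 0.849, 0.732, 0.84 and 0.707 RPKM at d0. In fits without 1 library the count was 3 (without d36 replicate 8) to 8 (without d36 replicate 9), and the call held for Kif20a in 5 of 8 (adjusted p = 0.0551 without d0 replicate 4).

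DNA replication genes had more RNA at d0 and smaller changes. Of 20 tested members 13 were higher and 0 lower, with a median of 0.76 and 20 positive log2 fold changes. In 3 of the 20, Rrm2 among them, every d0 library was under 1 RPKM, so this count is a description as well. Rrm2, a subunit of the enzyme that makes deoxynucleotides, had 16.3, 6.2, 7.9 and 1.4 RPKM at d36 and 0.316, 0.321, 0.255 and 0.171 RPKM at d0. Replicate 1 stood well above the others (log2 fold change 2.51 ± 0.47, adjusted p = 0.0115). Mcm4, part of the replicative helicase, had 21.6, 14.5, 18.4 and 11.1 RPKM at d36 and 9.01, 6.84, 6.83 and 7.75 RPKM at d0 (log2 fold change 0.99 ± 0.19, adjusted p = 0.0121). Pcna, the sliding clamp of DNA polymerase, had 16.1, 18.6, 16.6 and 15.02 RPKM at d36 and 10.1, 12.2, 10.6 and 9.96 RPKM at d0. Here replicate 9 was close to the other d36 libraries (log2 fold change 0.58 ± 0.11, adjusted p = 0.0108). Gins2, another part of the helicase complex, had 7.57, 5.48, 6.18 and 2.07 RPKM at d36 and 1.23, 0.785, 1.12 and 1.27 RPKM at d0 (log2 fold change 1.5 ± 0.28, adjusted p = 0.011). In fits without 1 library the replication count was 4 (without d0 replicate 3) to 18 (without d36 replicate 9). Of 9 cell cycle inhibitor and p53 target genes 2 were higher, where 10.9% of all tested entries were higher. Cdkn1b, which codes for the inhibitor p27, had 7.23, 7.67, 6.56 and 8.86 RPKM at d36 and 2.46, 3.91, 3.33 and 2.15 RPKM at d0. Its highest library was replicate 9 (log2 fold change 1.13 ± 0.16, adjusted p = 0.00505). Ccng1, a p53 target, had 5.03 to 21.1 RPKM at d36 and 2.91 to 4.8 RPKM at d0 and a log2 fold change of 1.5, and the call held for Ccng1 in 4 of 8 (adjusted p = 0.0679 without d0 replicate 3).

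The Top2a promoter is shown for the letters that the tested mitosis genes share. The RefSeq window lies at chr11:99024140-99024439 on the minus strand and is printed in the direction of transcription. Capitals mark CCAAT and its reverse complement ATTGG.
Top2a: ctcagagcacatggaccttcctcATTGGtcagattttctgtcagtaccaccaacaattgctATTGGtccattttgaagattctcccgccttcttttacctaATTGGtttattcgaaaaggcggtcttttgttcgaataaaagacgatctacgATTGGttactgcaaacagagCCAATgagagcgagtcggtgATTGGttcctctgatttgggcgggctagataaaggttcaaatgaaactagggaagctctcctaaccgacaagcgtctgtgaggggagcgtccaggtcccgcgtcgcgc
The window holds 6 such stretches. CCAAT, on either strand, was found in 7 of 7 tested mitosis genes with a window, in 11 of 17 replication genes (64.7%) and in 41.1% of all genes. TTTGAA, the core of the cell cycle homology region, was found in 7 of 7 mitosis genes and in 20.2% of all genes. These are counts of letters in genes chosen for their role, without a test. Only tested members were searched. Of these, 5 of 8 mitosis genes and 3 of 20 replication genes were under 1 RPKM in every d0 library and entered through d36. The shares are therefore a description.

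The factor HIF1 can induce genes of glucose use and of the response to low oxygen, and its part here was not tested. Of 13 tested glucose uptake and glycolysis genes 7 were higher and 0 lower, with a median of 1.06. Over all tested entries 10.9% were higher and 3.96% lower. Ldha, which turns pyruvate into lactate, had 172, 120.2, 116 and 39.96 RPKM in the d36 libraries, against 31.7, 28.6, 31.3 and 32.5 RPKM in the d0 libraries. Replicates 1, 7 and 8 stood far above d0 and replicate 9 just above it (log2 fold change 1.65 ± 0.36, adjusted p = 0.019). Slc2a1, the glucose transporter GLUT1, had 39.8, 31.3, 34.05 and 9.77 RPKM at d36 and 7.52, 5.15, 8.66 and 9.51 RPKM at d0. Replicate 9 was barely above the d0 libraries (log2 fold change 1.64 ± 0.38, adjusted p = 0.0226). The glycolytic genes Pgk1, Pgam1 and Pkm had log2 fold changes of 1.06, 0.96 and 1.43, with 4.56 to 13.8 RPKM at d36 and 3.22 to 3.95 RPKM at d0 for Pgk1 and 3.38 to 7.54 RPKM at d36 and 2.33 to 2.89 RPKM at d0 for Pgam1. Hk2, the inducible hexokinase, did not enter the test and had 8.14, 6.66, 7.06 and 0.565 RPKM at d36 and 0 to 0.108 RPKM at d0. Gapdh, an enzyme every cell uses, was listed at 0.778 to 1.57 RPKM at d36 and 0.463 to 0.832 RPKM at d0, so listed levels of genes with many near-identical copies are uncertain. Fits without 1 library called 0 (without d36 replicate 8) to 10 (without d36 replicate 9) of these higher. Among those fits, calls held for Ldha in 5 of 8 (adjusted p = 0.0577 without d36 replicate 8), Slc2a1 in 2 of 8 (adjusted p = 0.0671 without d36 replicate 8), Pgk1 in 2 of 8 (adjusted p = 0.0705 without d36 replicate 8) and Pgam1 in 5 of 8 (adjusted p = 0.058 without d0 replicate 3).

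Of 13 other hypoxia response genes 5 were higher and 0 lower, with a median of 1.02 and 13 positive log2 fold changes. Over all tested entries 10.9% were higher and 3.96% lower. Hif1a had 7.8, 6.79, 7.97 and 6.84 RPKM at d36 and 1.64, 2.51, 1.85 and 1.54 RPKM at d0. All d36 libraries were level with one another and far above d0 (log2 fold change 1.54 ± 0.13, adjusted p = 0.00126). Bnip3, a gene of mitochondrial turnover, had 29.7, 28.9, 27.4 and 18.4 RPKM at d36 and 9.99, 9.41, 8.94 and 10.5 RPKM at d0. The groups were well apart, with replicate 9 lowest at d36 (log2 fold change 1.32 ± 0.15, adjusted p = 0.0026). Adm, the vasodilator peptide adrenomedullin, had 25.4, 21.5, 32.4 and 2.09 RPKM at d36 and 1.09, 1.09, 0.842 and 0.744 RPKM at d0. Replicate 9 was close to d0 (log2 fold change 3.02 ± 0.63, adjusted p = 0.0161). Ankrd37, a direct HIF target, had 15.6, 49.4, 12.6 and 9.69 RPKM at d36 and 3.95, 4.65, 4.81 and 4.67 RPKM at d0 (log2 fold change 1.76 ± 0.40, adjusted p = 0.0213). Vegfa, the main growth factor of vessels, had 1.28, 3.39, 1.34 and 0.76 RPKM at d36 and 1.88, 1.25, 0.849 and 0.582 RPKM at d0 and did not pass. Fits without 1 library called 2 (without d0 replicate 3) to 9 (without d36 replicate 9) of these higher, and calls held for Adm in 6 of 8 (adjusted p = 0.0544 without d0 replicate 4) and Ankrd37 in 4 of 8 (adjusted p = 0.0606 without d0 replicate 4).

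The Ldha promoter is shown for ACGTG, the core of the hypoxia response element. The RefSeq window lies at chr7:46845554-46845853 on the plus strand. Capitals mark ACGTG and its reverse complement CACGT, which overlap where they form CACGTG.
Ldha: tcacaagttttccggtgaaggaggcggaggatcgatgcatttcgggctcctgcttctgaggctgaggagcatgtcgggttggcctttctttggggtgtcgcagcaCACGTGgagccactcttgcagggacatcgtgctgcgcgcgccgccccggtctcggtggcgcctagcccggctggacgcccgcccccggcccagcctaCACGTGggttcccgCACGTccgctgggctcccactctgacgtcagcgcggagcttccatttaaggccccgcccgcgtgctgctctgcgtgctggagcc
On both strands together there were 5 matches. ACGTG was found in 9 of 13 tested glycolysis genes with a window (69.2%), in 9 of 11 hypoxia genes (81.8%) and in 21.8% of all genes. Known HIF targets are on both lists, so these shares are a description.

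Genes of protein making and folding rose in part, where 10.9% of all tested entries were higher and 3.96% lower. Of 13 tested heat shock genes 6 were higher and 0 lower, with a median of 1.23. Hspa1a, an inducible chaperone whose reads may be shared with its near-identical copy Hspa1b, had 163, 422, 184 and 76.7 RPKM at d36 and 49.8, 29.2, 28.1 and 31.9 RPKM at d0 (log2 fold change 2.35 ± 0.42, adjusted p = 0.0101). Hsp90aa1, the inducible HSP90 gene, had 35.1, 25.1, 31.3 and 15.7 RPKM at d36 and 7.11, 7.59, 8.44 and 7.67 RPKM at d0. In both genes the groups did not overlap and replicate 9 was lowest at d36 (log2 fold change 1.62 ± 0.21, adjusted p = 0.00377 for Hsp90aa1). Hspe1, a mitochondrial chaperone, had 13.4 to 37.4 RPKM at d36 and 7.75 to 10.01 RPKM at d0 (log2 fold change 1.31). Of 22 cytosolic ribosomal protein genes 8 were higher and 0 lower, with a median of 0.48 and 22 positive log2 fold changes. Rpl13 had 25.9, 30.8, 23.6 and 15.2 RPKM at d36 and 9.99, 10.3, 5.87 and 7.82 RPKM at d0 (log2 fold change 1.38 ± 0.22, adjusted p = 0.0079). Rps2, Rpl4 and Rpl5 had log2 fold changes of 1.22, 1.03 and 0.67, and processed copies of such genes make their listed levels uncertain. Leaving out single libraries gave 4 (without d36 replicate 8) to 11 (without d36 replicate 9) higher heat shock genes and 1 (without d0 replicate 3) to 17 (without d36 replicate 9) higher ribosomal protein genes. Among those fits, calls held for Rps2 in 1 of 8 (adjusted p = 0.0968 without d0 replicate 3), Rpl4 in 4 of 8 (adjusted p = 0.0664 without d0 replicate 3) and Rpl5 in 6 of 8 (adjusted p = 0.0573 without d0 replicate 3).

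Of 13 amino acid transport and synthesis genes 4 were higher and 0 lower, with a median of 0.50, where 10.9% of all tested entries were higher. The count was 1 (without d0 replicate 3) to 7 (without d36 replicate 9) in fits that left out a library, and 2 with a trend on transcript length and GC content removed, an alternative chosen after seeing the data. Phgdh, the first enzyme of serine synthesis, had 15.1, 12.2, 8.52 and 1.21 RPKM at d36 and 0.228, 0.242, 0.217 and 0.274 RPKM at d0. It was near absent at d0 (log2 fold change 2.72 ± 0.52, adjusted p = 0.0117). With every d0 library under 1 RPKM, Phgdh entered the test through d36. Mthfd2, an enzyme of mitochondrial folate use, had 2.43 to 25.6 RPKM at d36 and 1.38 to 2.77 RPKM at d0 (log2 fold change 1.9). The transporter genes Slc1a5 and Slc38a2 had log2 fold changes of 1.5 and 1.2. Calls held for Mthfd2 in 1 of 8 (adjusted p = 0.103 without d36 replicate 8), Slc1a5 in 1 of 8 (adjusted p = 0.128 without d0 replicate 4) and Slc38a2 in 7 of 8 (adjusted p = 0.0505 without d0 replicate 3).

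In the endoplasmic reticulum, where secreted proteins are folded, 3 of 16 tested genes were higher and 0 lower, with a median of 0.15. The share higher over all tested entries was 10.9%, and the count was 3 (without d36 replicate 1) to 6 (without d36 replicate 9) with 1 library left out. Ssr3, a subunit of the complex that helps new proteins into the reticulum, had 37.8, 39.5, 35.1 and 33.2 RPKM in the d36 libraries, against 8.92, 9.2, 10.2 and 7.91 RPKM in the d0 libraries. All 4 d36 libraries were in a narrow range far above d0, and its adjusted p was the smallest of the named genes (log2 fold change 1.9 ± 0.11, adjusted p = 0.00012). Ssr3 averaged 13.3 RPKM at d15 and 26.7 RPKM at d22, so its mean was between those of d36 and d0 at both. Dnajb9, a chaperone induced by misfolded protein, had 13.2, 15.95, 14.7 and 13.1 RPKM at d36 and 6.78, 7.68, 7.48 and 6.41 RPKM at d0 (log2 fold change 0.91 ± 0.11, adjusted p = 0.00281). Canx, the chaperone calnexin, had 18.4, 22.8, 22.3 and 23.6 RPKM at d36 and 14.2, 15.6, 14.5 and 13.8 RPKM at d0. In Canx replicate 9 was the highest library (log2 fold change 0.55 ± 0.11, adjusted p = 0.0128).

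Matrix and mesenchymal genes were led by Lgals1 and the S100 genes given above. Of 12 tested mesenchymal transition genes 6 were higher and 0 lower, with a median of 0.52. In 1 of the 12 every d0 library was under 1 RPKM, so it entered the test through d36. Over all tested entries 10.9% were higher and 3.96% lower. The defining members Vim (0.37), Zeb1 (0.15) and Snai2 (0.18) did not pass. Tgfbi, a matrix protein induced by TGF-beta, had 15.5, 24.6, 15.7 and 2.62 RPKM at d36 and 1.43, 1.36, 2.21 and 2.17 RPKM at d0. Replicate 9 was close to d0 (log2 fold change 2.19 ± 0.50, adjusted p = 0.022), and the call held for Tgfbi in 2 of 8 (adjusted p = 0.065 without d36 replicate 8). Of 15 tested matrix genes 5 were higher and 0 lower, with a median of 0.22. In 2 of the 15, Fn1 among them, every d0 library was under 1 RPKM, so they entered the test through d36 and this count is a description. Fn1, the adhesive protein fibronectin, had 5.76, 4.12, 5.27 and 1.1 RPKM at d36 and 0.0458, 0.0954, 0.0406 and 0.0419 RPKM at d0 (log2 fold change 2.13 ± 0.32, adjusted p = 0.00565). Col6a1, a collagen of microfibrils, had 23.3, 43.2, 14.3 and 1.04 RPKM at d36 and 0.443 to 0.816 RPKM at d0. Sparcl1, a matricellular protein of the vessel wall, had 12.8, 20.3, 12.5 and 10.4 RPKM at d36 and 3.23, 2.3, 2.46 and 2.11 RPKM at d0. Replicate 7 was highest and replicate 9 lowest at d36, and each d36 library was far above d0 (log2 fold change 2.06 ± 0.19, adjusted p = 0.00126). Thbs1, which codes for the vessel growth inhibitor thrombospondin 1, had 9.72, 9.41, 10.7 and 5.74 RPKM at d36 and 3.56, 3.51, 3.63 and 3.42 RPKM at d0 (log2 fold change 1.1 ± 0.17, adjusted p = 0.00645). Nid1, a basement membrane protein, had 21.8 to 37.2 RPKM at d36 and 15.9 to 21.8 RPKM at d0 (log2 fold change 0.76). The basement membrane collagen genes Col4a1 (-0.11) and Col4a2 (0.30) did not pass. Leaving out single libraries gave 3 (without d36 replicate 1) to 8 (without d36 replicate 9) higher mesenchymal genes and 3 (without d36 replicate 1) to 6 (without d36 replicate 9) higher matrix genes, and the call held for Nid1 in 2 of 8 (adjusted p = 0.0797 without d0 replicate 4).

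Of 13 proteases and their inhibitors 3 were higher and 0 lower, with a median of 0.82, where 10.9% of all tested entries were higher. The count was 0 (without d36 replicate 1) to 9 (without d36 replicate 9) in fits that left out a library. Plau, the urokinase protease, had 4.0 to 7.08 RPKM at d36 and 1.77 to 3.37 RPKM at d0 (log2 fold change 0.82). The lysosomal protease genes Ctsb and Ctsl had log2 fold changes of 0.56 and 0.51. Timp1, an inhibitor of matrix proteases, had 10.97, 9.65, 8.51 and 1.11 RPKM at d36 and 2.18, 1.71, 1.88 and 1.69 RPKM at d0. It did not pass (adjusted p = 0.0858) and did without replicate 9 (adjusted p = 9.59e-06). Calls held for Plau in 3 of 8 (adjusted p = 0.0785 without d0 replicate 4), Ctsb in 2 of 8 (adjusted p = 0.0826 without d0 replicate 3) and Ctsl in 1 of 8 (adjusted p = 0.0844 without d0 replicate 4).

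**Figure D3:**
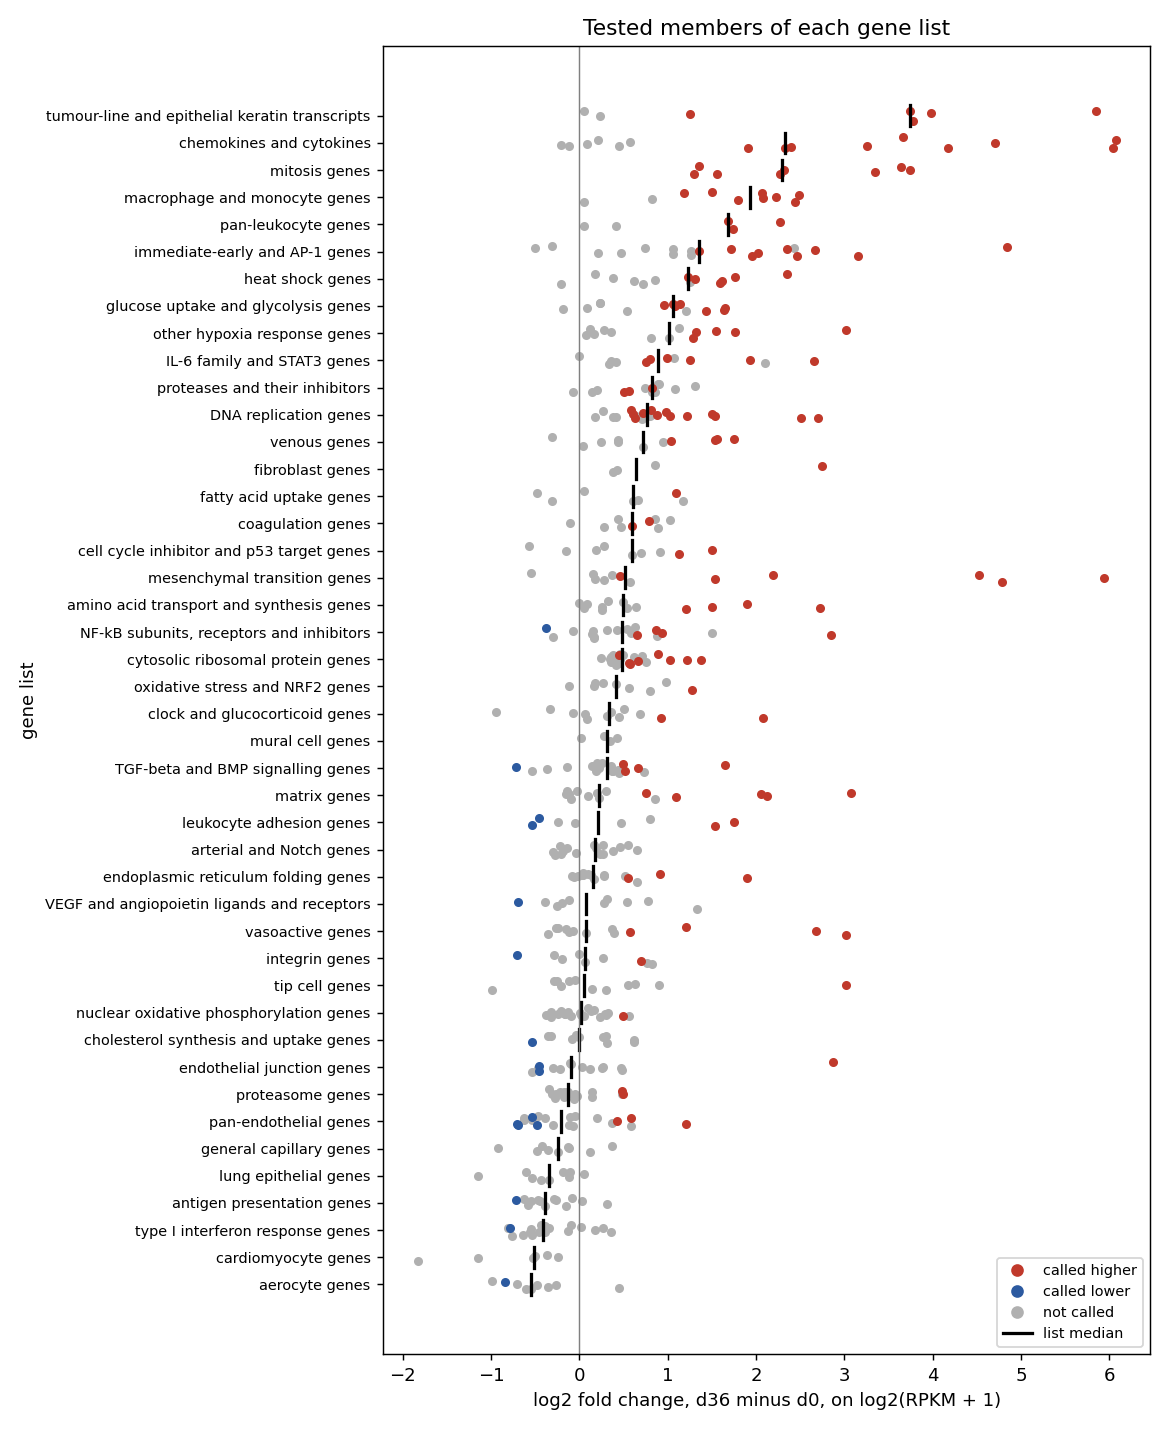
Log2 fold change of d36 minus d0 on log2(RPKM + 1) for each tested member of the gene lists with at least 4 tested members, 1 list per line, ordered by the list median (black bar). Tumour-line transcripts (median 3.75), chemokines (2.33) and mitosis genes (2.29) are at the top, and interferon response, cardiomyocyte and aerocyte genes (medians -0.41, -0.51 and -0.55) at the bottom.

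Genes that mark endothelium changed less and in both directions. Of 20 pan-endothelial genes 3 were higher and 4 lower, with a median of -0.21, and 7 of the 20 had each d36 library below each d0 library. Over all tested entries 10.9% were higher and 3.96% lower, and 7.85% had d36 below d0 in this way. Tie1, an orphan receptor of the angiopoietin system, had 299, 235, 286 and 284 RPKM in the d36 libraries, against 438, 410.4, 457 and 472 RPKM in the d0 libraries. The groups were well apart and replicate 9 lay within the other d36 libraries (log2 fold change -0.69 ± 0.12, adjusted p = 0.0086). Robo4, a guidance receptor that keeps vessels tight, had 88.7, 68.4, 98.3 and 98.9 RPKM at d36 and 151, 131, 144 and 147 RPKM at d0 (log2 fold change -0.70 ± 0.13, adjusted p = 0.0112). Cdh5, the cadherin of endothelial junctions, had 293, 248, 331 and 291 RPKM at d36 and 343, 349.98, 353 and 382 RPKM at d0. Its groups did not overlap, yet it did not pass (adjusted p = 0.112). Kdr, the main VEGF receptor, had 64.1, 53.6, 79.7 and 81.9 RPKM at d36 and 101, 109, 75.3 and 80.9 RPKM at d0 and did not pass (adjusted p = 0.142). Fli1 and Sox7, transcription factors of the endothelial lineage, rose. Fli1 had 45.4, 51.6, 46.8 and 35.8 RPKM at d36 and 30.2, 27.1, 26.5 and 34.1 RPKM at d0 (log2 fold change 0.58 ± 0.13, adjusted p = 0.0218). Sox7 had 53.7, 53.7, 46.6 and 46.5 RPKM at d36 and 36.9, 35.6, 40.2 and 35.4 RPKM at d0 (log2 fold change 0.43 ± 0.10, adjusted p = 0.0223). Leaving out single libraries gave 2 (without d36 replicate 1) to 7 (without d36 replicate 9) lower members, and calls held for Fli1 in 3 of 8 (adjusted p = 0.0744 without d0 replicate 3) and Sox7 in 3 of 8 (adjusted p = 0.0745 without d0 replicate 4).

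Ramp2, the coreceptor for adrenomedullin, was the most abundant gene named here. It had 3639, 2595, 3029.9 and 6805 RPKM at d36 and 1555, 2134, 1491 and 1368 RPKM at d0. Replicate 9 was highest by far, and the groups did not overlap (log2 fold change 1.21 ± 0.30, adjusted p = 0.0279). Calcrl, its partner receptor, had 137, 116, 123 and 96.3 RPKM at d36 and 77.05, 75.9, 83.2 and 77.98 RPKM at d0 (log2 fold change 0.57 ± 0.12, adjusted p = 0.016). With Adm, the ligand gene and both receptor genes were higher at d36. Among the d36 libraries replicate 9 was lowest in Adm and Calcrl and highest in Ramp2. Ramp2 averaged 2416 RPKM at d15 and 3958 RPKM at d22. Calls held for Ramp2 in 3 of 8 (adjusted p = 0.0858 without d0 replicate 3) and Calcrl in 6 of 8 (adjusted p = 0.0551 without d0 replicate 4).

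Capillary genes had few calls, where 10.9% of all tested entries were higher and 3.96% lower. In the aerocyte list, named for the large capillary cells of gas exchange, 1 of 9 tested genes was lower and 0 higher, with a median of -0.55. That gene was Prx, which codes for periaxin, with 66.9, 98.97, 103 and 81.3 RPKM at d36 and 163, 186, 144 and 134 RPKM at d0. The groups did not overlap (log2 fold change -0.84 ± 0.16, adjusted p = 0.0121). Car4, the carbonic anhydrase of these cells, had 28.4, 35.8, 46.7 and 93.2 RPKM at d36 and 68.7, 85.8, 74.5 and 56.1 RPKM at d0. Apln, the apelin peptide, had 4.88, 5.67, 13.8 and 19.7 RPKM at d36 and 18.5, 31.8, 19.9 and 13.03 RPKM at d0. Ednrb, an endothelin receptor, had 41.4, 51.4, 75.3 and 119 RPKM at d36 and 68.3, 127, 86.6 and 68.2 RPKM at d0. In these 3 genes replicates 1 and 7 were below each d0 library and replicate 9 lay within or above the d0 range, and none passed. Without replicate 9, Car4 passed (adjusted p = 0.00503) and 4 aerocyte genes were lower. Of 9 general capillary genes 0 were called, with a median of -0.25. Gpihbp1, which anchors the lipase of capillaries, had 203, 259, 282 and 291 RPKM at d36 and 338, 324, 340.3 and 444 RPKM at d0. Aplnr, the apelin receptor, had 82.05, 22.2, 73.9 and 72.7 RPKM at d36 and 100.3, 94.3, 107 and 131 RPKM at d0. Both had each d36 value below each d0 value and did not pass (adjusted p = 0.0613 and 0.108).

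Genes of sprouting and of arteries showed little, where 10.9% of all tested entries were higher and 3.96% lower. Arterial and Notch genes had 0 calls among 16 and a median of 0.18, lymphatic genes 0 among 3, and VEGF and angiopoietin genes 1 of 10, which was Tie1. Of 12 tip cell genes 1 was higher, Adm, which is close to the share over all tested entries. Angpt2, the destabilising angiopoietin, had 36.4, 15.3, 22.8 and 30.6 RPKM at d36 and 33.95, 24.5, 25.4 and 38.9 RPKM at d0 and did not pass. Esm1, a marker of sprouting tips, had 20.1, 13.6, 11.6 and 19.1 RPKM at d36 and 7.5, 13.1, 9.86 and 12.2 RPKM at d0 and did not pass either. The tip cell median of 0.05 turned to -0.02 with median ratio scaling and -0.03 with quantile normalization.

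Among junction genes 1 of 15 was higher and 2 lower, where 10.9% of all tested entries were higher and 3.96% lower. Gja1, a gap junction protein, had 57.7, 40.96, 60.3 and 10.1 RPKM at d36 and 4.22, 4.79, 2.74 and 4.17 RPKM at d0. The groups did not overlap, and replicate 9 was lowest at d36 (log2 fold change 2.87 ± 0.47, adjusted p = 0.00824). Jup, the junction protein plakoglobin, had 90.2 to 122 RPKM at d36 and 129 to 162 RPKM at d0 and fell by 0.45 on the log2 scale, and F11r was the other lower gene. Of 13 vasoactive genes 4 were higher, which were Ramp2, Calcrl, Adm and Ptgs2. Ptgs2, the inducible prostaglandin synthase, had 23.6, 18.7, 19.1 and 3.01 RPKM at d36 and 0.594, 1.31, 1.37 and 1.62 RPKM at d0 (log2 fold change 2.68 ± 0.50, adjusted p = 0.011). Nos3, the nitric oxide synthase of endothelium, did not pass. It had 36.2 RPKM in replicate 7 and 6.95 to 11.4 RPKM in the other d36 libraries, against 12.03 to 13.1 RPKM at d0. The call held for Jup in 2 of 8 (adjusted p = 0.128 without d0 replicate 3).

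Of 20 TGF-beta and BMP genes 4 were higher and 1 lower, with a median of 0.31, where 10.9% of all tested entries were higher and 3.96% lower. With 1 library left out, 1 (without d36 replicate 8) to 6 (without d36 replicate 9) were higher and 0 (without d36 replicate 8) to 3 (without d36 replicate 9) lower, and with the length and GC trend removed 2 were higher. The ligand gene Tgfb3 had 5.14, 5.04, 5.08 and 1.15 RPKM at d36 and 0.561, 0.406, 0.599 and 0.44 RPKM at d0 (log2 fold change 1.65 ± 0.31, adjusted p = 0.0112). With every d0 library under 1 RPKM, Tgfb3 entered the test through d36. Bmpr2, a BMP receptor of lung vessels, had 73.5, 64.9, 67.3 and 78.9 RPKM at d36 and 45.8, 51.7, 57.6 and 43.6 RPKM at d0. All d36 libraries were above all d0 libraries, with replicate 9 highest (log2 fold change 0.51). Smad2, a signal carrier of TGF-beta, had 9.07 to 11.5 RPKM at d36 and 6.36 to 7.25 RPKM at d0 (log2 fold change 0.49). Id1, a direct target of BMP signalling, had 231, 333, 253 and 339 RPKM at d36 and 488, 429.6, 469.9 and 488 RPKM at d0. It was lower in each d36 library than in each d0 library (log2 fold change -0.72 ± 0.15, adjusted p = 0.0165). Calls held for Bmpr2 in 4 of 8 (adjusted p = 0.0721 without d0 replicate 4), Smad2 in 3 of 8 (adjusted p = 0.0601 without d0 replicate 3) and Id1 in 5 of 8 (adjusted p = 0.0563 without d0 replicate 4).

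Of 8 further lists, each held 1 or 2 calls with all 8 libraries, where 10.9% of all tested entries were higher and 3.96% lower. Cd36, a receptor for fatty acids and thrombospondin on capillaries, was the 1 call among 7 fatty acid uptake genes, with 252, 219, 247 and 419 RPKM at d36 and 131, 150.1, 117 and 116 RPKM at d0. Replicate 9 was highest (log2 fold change 1.1 ± 0.20, adjusted p = 0.00962). Of 9 clotting genes 2 were higher, Tfpi, the tissue factor inhibitor (9.06 to 12.9 RPKM at d36 and 5.16 to 8.96 RPKM at d0, log2 fold change 0.79), and Anxa2, a plasminogen receptor (0.60). Txnrd1, a thioredoxin reductase, was the 1 call among 9 oxidative stress genes (1.27), and Hmox1, the inducible haem oxygenase, did not pass at 0.99. Of 12 clock and glucocorticoid genes Bhlhe40 (10.2 to 88.04 RPKM at d36 and 7.25 to 12.9 RPKM at d0, log2 fold change 2.08) and Nr1d2 (0.93) were higher. Among 9 integrin genes Itgb3, the platelet and endothelial beta chain (0.70), was higher and Itga3 (-0.70) lower. Mvk, an enzyme of cholesterol synthesis, was the 1 lower gene among 11 (-0.54). Proteasome genes had 2 higher among 19, Psmd1 (0.50) and Psmd14 (0.48), with a median of -0.13. That count is close to the 10.9% of all tested entries that were higher, and with the length and GC trend removed 0 were higher and 4 lower. Nuclear genes of oxidative phosphorylation had 1 higher among 21, Cox6c (0.49), with a median of 0.02 that turned negative with either scaling. Without d36 replicate 9, 7 clotting genes and 5 oxidative stress genes were higher, 5 cholesterol genes were higher and 2 lower, and 5 oxidative phosphorylation genes were higher and 5 lower. With the length and GC trend removed 0 clotting genes were higher. Calls held for Tfpi in 3 of 8 (adjusted p = 0.0695 without d0 replicate 3), Anxa2 in 1 of 8 (adjusted p = 0.124 without d0 replicate 3) and Txnrd1 in 2 of 8 (adjusted p = 0.0775 without d0 replicate 3). They held likewise for Bhlhe40 in 1 of 8 (adjusted p = 0.0903 without d0 replicate 3), Nr1d2 in 2 of 8 (adjusted p = 0.0792 without d0 replicate 3) and Itgb3 in 1 of 8 (adjusted p = 0.113 without d0 replicate 3). For the last of these lists they held for Itga3 in 1 of 8 (adjusted p = 0.128 without d0 replicate 3), Mvk in 2 of 8 (adjusted p = 0.117 without d0 replicate 4), Psmd1 in 1 of 8 (adjusted p = 0.126 without d36 replicate 8), Psmd14 in 1 of 8 (adjusted p = 0.128 without d36 replicate 8) and Cox6c in 2 of 8 (adjusted p = 0.0863 without d0 replicate 4).

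Interferon and antigen presentation genes had few calls and medians below 0. Of 18 type I interferon response genes 0 were higher and 1 lower, with a median of -0.41 and 4 positive log2 fold changes. The 1 of 18 is close to the 3.96% of all tested entries that were lower, and the count was 0 (without d36 replicate 1) to 3 (without d36 replicate 9) with 1 library left out. The lower gene was Irf7, the factor that amplifies the response, with 26.9, 14.004, 27.4 and 19.5 RPKM at d36 and 45.7, 29.5, 35.9 and 39.4 RPKM at d0. The groups did not overlap (log2 fold change -0.78 ± 0.21, adjusted p = 0.0379). Of 13 antigen presentation genes 1 was lower, Psmb10, a subunit of the immunoproteasome, with 147, 145, 187 and 219.8 RPKM at d36 and 304, 237, 299 and 297 RPKM at d0 (log2 fold change -0.71 ± 0.16, adjusted p = 0.02). Calls held for Irf7 in 2 of 8 (adjusted p = 0.101 without d0 replicate 4) and Psmb10 in 4 of 8 (adjusted p = 0.0677 without d0 replicate 3). With the length and GC trend removed, 0 genes of either list were called.

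The largest falls were smaller than the rises. Tbxa2r, the receptor for the platelet mediator thromboxane, had 4.93, 5.95, 8.62 and 11.6 RPKM in the d36 libraries, against 23.9, 20.5, 17.8 and 15.5 RPKM in the d0 libraries. Replicate 9 was the d36 library closest to d0 (log2 fold change -1.26 ± 0.23, adjusted p = 0.0104). Tbxa2r lies on chromosome 10, 81328731 to 81335172 (plus strand), and it averaged 7.83 RPKM at d15 and 8.83 RPKM at d22. Mmp15, a membrane-bound protease, had 6.85, 1.95, 8.22 and 9.92 RPKM at d36 and 13.7, 15.4, 16.1 and 15.5 RPKM at d0. Replicate 7 was lowest (log2 fold change -1.22 ± 0.34, adjusted p = 0.0426). Ckb, a creatine kinase, had 9.75, 8.57, 13.7 and 15.96 RPKM at d36 and 23.99, 19.2, 22.8 and 23.5 RPKM at d0 (log2 fold change -0.88 ± 0.18, adjusted p = 0.0152). Klk8, a serine protease, had 14.02, 16.4, 19.3 and 25.03 RPKM at d36 and 31.2, 33.8, 37.2 and 37.2 RPKM at d0 (log2 fold change -0.89 ± 0.16, adjusted p = 0.0103). Sirt5, a mitochondrial deacylase, had 17.7, 11.9, 20.7 and 24.4 RPKM at d36 and 31.5, 30.3, 32.6 and 35.8 RPKM at d0. In Ckb, Klk8 and Sirt5 the highest d36 library was replicate 9 (log2 fold change -0.81 ± 0.19, adjusted p = 0.0225 for Sirt5). The other falls were in D530008I23 (-1.05), Endou (-0.87), Tppp3 (-0.85), Prx, Ly6g6d (-0.83), Zbtb48 (-0.82) and Rps4y2 (-1.0), a ribosomal protein copy whose reads may be shared with others of its family. Their levels were 2.96 to 7.67 RPKM at d36 and 9.46 to 17.6 RPKM at d0 for D530008I23 and 5.58 to 12.2 RPKM at d36 and 13.2 to 16.6 RPKM at d0 for Endou. Tbxa2r, Klk8, Prx and Zbtb48 passed in each of the 8 fits that left out a library. Calls held for Mmp15 in 2 of 8 (adjusted p = 0.108 without d0 replicate 3), Ckb in 6 of 8 (adjusted p = 0.0544 without d0 replicate 4) and Sirt5 in 4 of 8 (adjusted p = 0.0713 without d0 replicate 4). They held for D530008I23 in 3 of 8 (adjusted p = 0.073 without d0 replicate 3), Rps4y2 in 4 of 8 (adjusted p = 0.0631 without d36 replicate 8) and Endou in 2 of 8 (adjusted p = 0.0679 without d0 replicate 3). They also held for Tppp3 in 2 of 8 (adjusted p = 0.0775 without d0 replicate 3) and Ly6g6d in 2 of 8 (adjusted p = 0.086 without d0 replicate 3).

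**Figure D4:**
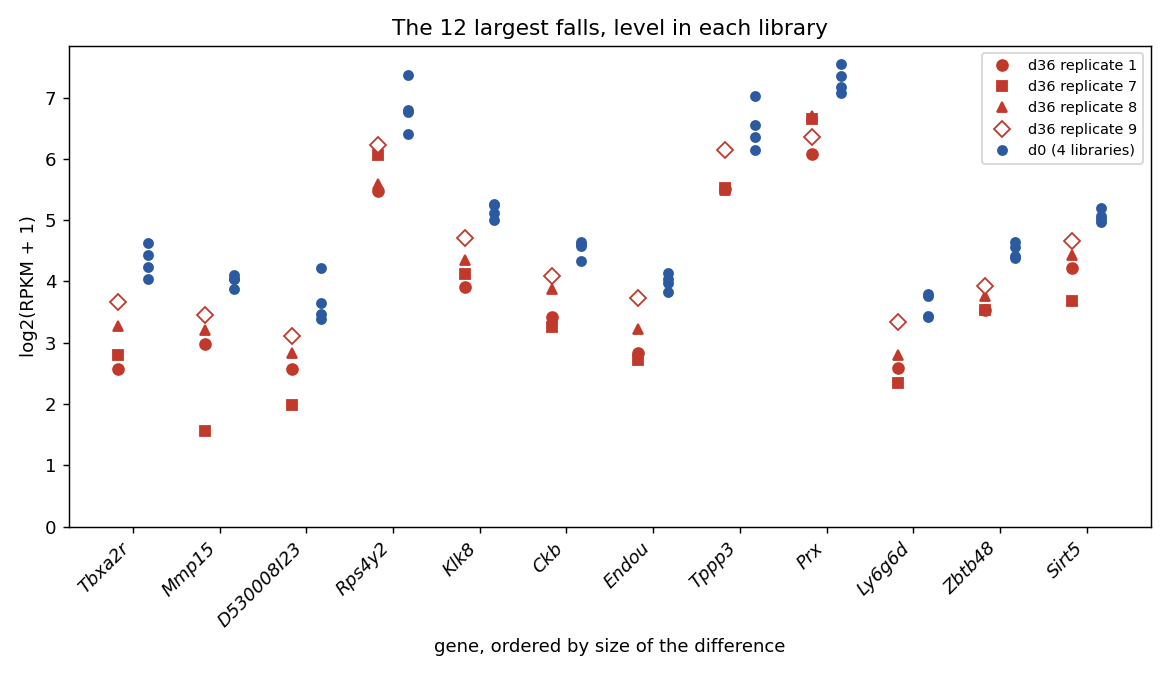
Level of the 12 genes with the largest falls, as log2(RPKM + 1), with the 4 d36 libraries left and the 4 d0 libraries right in each pair. Groups do not overlap, as the choice of these genes required, and for Tbxa2r the d36 libraries had 4.93 to 11.6 RPKM and the d0 libraries 15.5 to 23.9 RPKM.

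Because replicate 9 stood apart, its change from the d0 mean in RPKM was set against the mean change of d36 replicates 1, 7 and 8, as a description. Among the 335 rises of at least 2-fold the median share was 14.0% (quartiles 7.32% and 35.7%). In 203 of them it was under 20% and in 67 over 50%, and replicate 9 was above every d0 library in 286. Over all 1444 rises the median share was 59.4%. Over the 526 falls it was 78.3%, and 507 of these were below every d0 library in replicate 9. Replicate 9 was part of the fit that called these entries, which favours entries that it shares. The shares are therefore partly set by that choice. Without it, 2679 entries were called higher and 1550 lower.

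The share differed between gene groups. Among members called higher its median was 5.91% for mesenchymal, 6.14% for tumour-line, 6.60% for immediate-early and 6.76% for mitosis genes, and 7.55% for glycolysis and 7.58% for chemokine genes. It was 19.9% for ribosomal protein genes, 38.5% for NF-kB genes, 66.1% for pan-endothelial genes and 85.0% for endoplasmic reticulum genes. The pan-endothelial and endoplasmic reticulum medians rest on 3 genes each. All these calls used replicate 9, so the limit given above holds here too. Among single genes the share was 85.04% for Ssr3, 87.9% for Hif1a, 133% for Stat3 and 137% for Canx. It was 262% for Cd36 and 356% for Ramp2, so these changed more in replicate 9. The tumour-line sum was 37.0 RPKM in replicate 9, against 262 to 442 RPKM in the other d36 libraries and 11.1 to 15.8 RPKM at d0, and its part in these shares was not tested. The highest d36 library was replicate 1 for 153 of the 335 entries, replicate 7 for 107, replicate 8 for 45 and replicate 9 for 30.

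**Figure D5:**
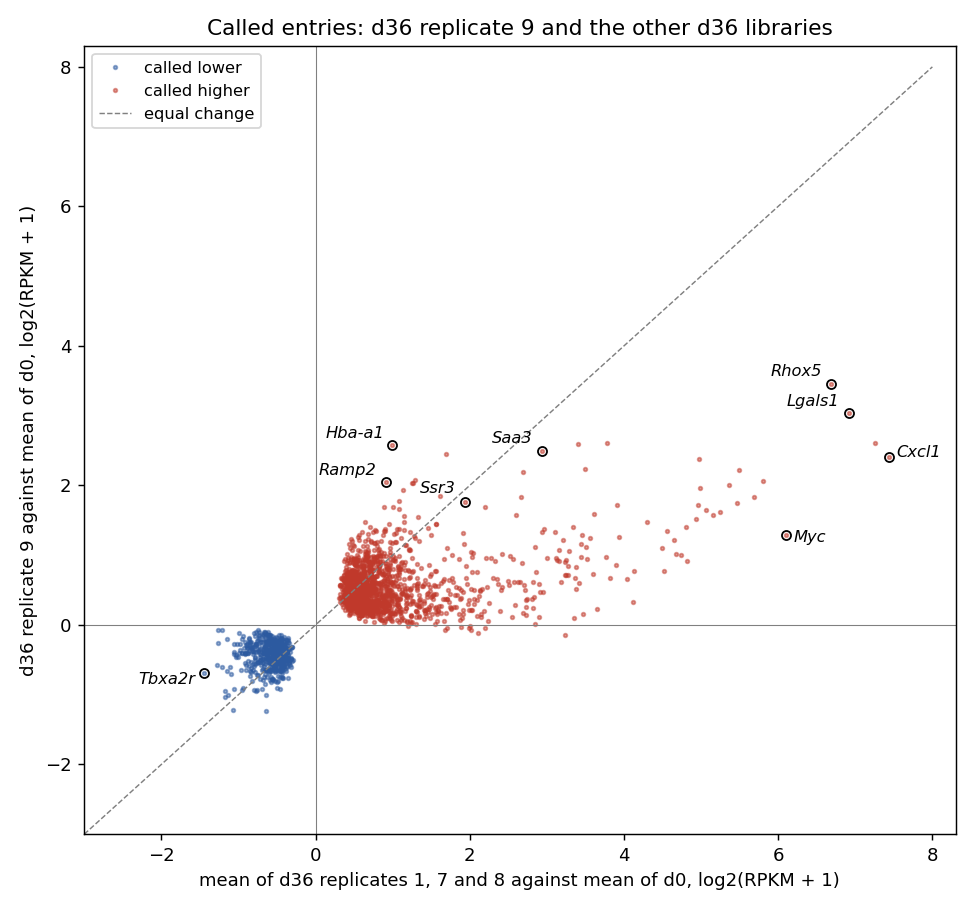
Change of d36 replicate 9 from the d0 mean (vertical axis) against the change of the mean of d36 replicates 1, 7 and 8 (horizontal axis), both as differences of log2(RPKM + 1), for the 1444 entries called higher and the 526 called lower. Rhox5, Lgals1, Cxcl1 and Myc lie far below the dashed line of equal change, Ssr3 and Saa3 close to it, and Ramp2 and Hba-a1 above it.

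In the authors' deposited table the d36 columns hold an adjusted p for 17027 entries, of which 2876 are under 0.05 with a positive and 912 with a negative log2 fold change. No comparison group is named for these columns. The log2 ratio of mean RPKM at d36 over d0 differs from the fold change in the authors' deposited table by a median of 0.00985, against 0.18 with d15 and 0.25 with d22 in place of d0. Of the 1970 limma calls 1925 (97.7%) were past the same threshold with the same sign in the authors' deposited table, which is 64.8% of its 2969 calls among the tested entries. Both come from the same libraries, so this compares methods.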

How the data were processed

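RNA of sorted lung endothelial cells was sequenced in 16 libraries, of which the 4 of d36 and the 4 of d0 were compared. The RPKM values were deposited by the authors, 1 column per library, as were log2 fold changes and adjusted p-values per time point, per the file headers. STAR, DESeq2 and mm10 are named in the submitters' processing notes, without role or version, and the annotation, filters and comparison group are not given in the sources used here. Libraries were made with a SMARTer Ultra Low kit, per the labels' protocols.

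Of 17715 entries, the 13279 that reached 1 RPKM in 4 or more of these libraries were analysed as log2(RPKM + 1). The test was limma 3.58.1 in R 4.3.3 with an intensity trend, 2-sided, on the 8 libraries, with Benjamini-Hochberg adjustment over all tested entries and a threshold of 0.05. Every adjusted p in the text comes from it unless the authors' table is named. It was also run on simulated entries, independent of one another and with equal spread in both groups. No simulated library stood apart as d36 replicate 9 did, so that case was not covered.

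Named genes are the 12 largest rises and 12 largest falls among called entries with a symbol, a mean of 2 RPKM or more at d36 or d0 and groups that do not overlap; up to 4 called members of each of 51 lists, with up to 2 of the rarer direction; and key genes of the lists. Other list members were named after their values were seen. Members and lists were chosen with earlier results of these data known. Depth was worked out from the steps between low values, where 403 of 4043 entries gave whole reads within 0.1 reads in all 16 libraries. Columns were matched to libraries by their titles, and coordinates are those of GENCODE M21 on mm10. Entries named by transcript identifiers (3443 with AK and 1461 with Ensembl numbers) and 17 symbols turned into dates were tested but not named. Other pseudocounts, filters, scalings, weights and left-out libraries were tried. The listed genes include some that are not reported here one by one.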

Additional observations from a re-analysis of the deposited data

Results flagged for a closer look

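Among 292 groups of 4 libraries (named genes in d36 and in d0), 27 held a library far from the other 3 on the log2(RPKM + 1) scale. Of these, 16 were at d36, and 14 of the 16 were replicate 9. The groups share the same libraries, and many of the genes were chosen for their change. No rate by chance is therefore set beside these counts. Replicate 9 stood low in genes that were high in the other d36 libraries. It had 31.1 RPKM for Lgals1, 2.62 for Ccl7, 3.01 for Serpinf1, 6.38 for Pla2g7 and 4.72 for Hmga1. It had 1.94 RPKM for Cdk1, 2.09 for Adm, 3.01 for Ptgs2, 1.15 for Tgfb3 and 1.11 for Timp1. Among more abundant genes it had 18.4 RPKM for Bnip3, 21.8 for Nid1 and 37.2 for Vwf. It stood high in Tppp3, with 70.01 RPKM, closest to the d0 libraries. Replicate 7 of d36 stood high in Rel, with 3.48 RPKM, and low in Aplnr, with 22.2 RPKM.

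At d0, 11 groups held such a library. Replicate 1 was high for Ccl2 (0.403 RPKM) and Pla2g7 (0.698 RPKM), low for Ube2c (0.192 RPKM) and high for Osmr (10.9 RPKM). Replicate 2 was high for Saa3 (0.0353 RPKM) and Fn1 (0.0954 RPKM) and low for Jup (129 RPKM) and Psmb10 (237 RPKM). Replicate 4 was high for Ccl7 (0.0599 RPKM), C1qb (0.234 RPKM) and Gpihbp1 (444 RPKM). For Saa3, Ccl7 and C1qb the other d0 libraries were at 0, where any value above 0 is flagged.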

How the results depend on the processing

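The numbers of entries called higher and lower, 1444 and 526, and of those at least 2-fold higher and lower, 335 and 10, moved with the settings. A pseudocount of 0.25 gave 473 at least 2-fold higher and 26 lower, and a pseudocount of 4 gave 165 and 4. Without a filter on low values 559 were at least 2-fold higher, and at a mean of at least 5 RPKM 874 were higher and 215 at least 2-fold higher; in both the number of entries tested differs. With the spread shared over 16 libraries there were 2231 higher and 1050 lower, 16 of them at least 2-fold lower. Library weights gave 3262 higher and 1864 lower, with 500 and 29 at least 2-fold. Median ratio scaling gave 882 lower, 22 of them at least 2-fold, and quantile normalization 1041 and 24. Leaving out 1 library gave 504 to 2679 higher and 74 to 1550 lower, and 164 to 564 at least 2-fold higher and 5 to 50 lower, with the highest counts without d36 replicate 9. The cause was not tested. Removing a trend with transcript length and GC content, chosen after seeing the data, gave 692 higher and 428 lower, 235 and 5 of them at least 2-fold, against 1291 higher and 427 lower among the same entries before. Across these entries the log2 fold change had a Spearman rho of -0.35 with GC content. As 78.3% of tested entries had both values, the check is void for the whole table. Of 44 lists with 4 or more tested members, all of them covered, the number of higher members moved by over 1.5 times in 10 and that of lower members in 7. Among called named genes, Lum, Mthfd2, Slc1a5, Ccng1, Hba-a1, Osmr, Nr1d2, Tfpi, Itgb3, Rpl5 and Rel lost the call with this trend removed. So did Anxa2, Pcna, Fli1, Calcrl, Canx, Bmpr2, Ctsl, Psmd1, Psmd14, Cox6c, Smad2 and Rela. Jup, Mvk, Icam2, Itga3, Psmb10, Irf7, Ly6g6d, Tppp3, Ckb and Mmp15 lost it as well.

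Of 124 called named genes, 59 passed in all 8 fits that left out a library. Some of the 59 were under 1 RPKM in every d0 library and entered the test through d36. Over 2541 values of named genes under these settings, 2114 stayed on the same side of the threshold, 398 lost the call and 29 gained one. No called value changed sign, and 3 values of 1 uncalled gene, Nos3, did. No paired analysis was possible because the groups share only replicate number 1. On a transcript of 1 kilobase 1 RPKM stood for about 95.3 to 152 reads. Values far under 1 RPKM therefore rest on few reads, and differences between such values are uncertain.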
